A study of Mus musculus with 7 samples.

Results

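The 3 samples of SMB21 cells that received a guide against Ofd1 and the 2 that received a guide against Kif3a were taken as 1 group of 5 and set against the 2 samples that received a guide against GFP, which has no target in mouse cells. These 7 samples are all of those analysed here, and 12875 of the 24047 genes in the table had enough counts to be tested. SMB21 is a mouse medulloblastoma line, recorded as coming from an adult animal, and every group, control included, has the Ptch mutant background of strain Ptch1tm1Mps/J (JAX003081). The cells grew as neurospheres, received the guide and Cas9 from a lentiCRISPR vector, and were collected 2 weeks after infection, with no sampling at other times. Each group is known here only by its guide target. No label gives the guide sequences, the share of edited alleles, or whether a sample was a clone or a mixed population. The series text counts 3 GFP samples, of which 2 were analysed here. The labels call the replicates biological without saying what was separate between them, so p-values measure the spread between these samples, which may be partly technical.

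Primary cilia are single, non-motile projections that vertebrate cells use to receive Hedgehog signals. When Ptch1, the receptor that restrains the pathway, is lost, Smoothened enters the cilium and the Gli transcription factors are activated there, and granule neuron progenitors of the cerebellum can then form medulloblastoma. Ofd1 is a protein of centrioles and centriolar satellites needed to build the base of the cilium, whereas Kif3a belongs to the motor kinesin-2, which carries intraflagellar transport trains along the axoneme.

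Library totals ranged from 17961767 to 23022701 counts, and 3 counts corresponded to between 0.130 and 0.167 CPM, that is, counts scaled to a common library size. All CPM values below use TMM factors, which correct for differences in library composition. The first principal component held 54.1% of the variance and placed the controls at -34.9 and -29.4 and the 5 cilium-guide samples from 1.10 to 24.8. Granule progenitor markers fitted the labelled cell type: Atoh1 lay between 364 and 619 CPM in the 7 samples, and the 6 markers of this list summed to between 2334 and 3321 CPM. Defining markers of other cell types (Cx3cr1, Mog, Sox10, Cldn5 and Aqp4) had no count in any sample. Control replicate 1 stood apart for macrophage genes, with a sum of 29.9 CPM over 13 such markers against 2.40 CPM in control replicate 2 and 2.85 to 4.24 CPM in the cilium-guide samples.

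Transcripts of the targeted genes were measured first. Kif3a was at 104 and 104 CPM in the controls, at 90.5, 93.1 and 97.4 CPM with the Ofd1 guide and at 73.9 and 60.5 CPM with the Kif3a guide. All 5 cilium-guide samples were below the controls, the 2 Kif3a samples most so, but the pooled log2 fold change of -0.32 (SE 0.14) did not pass the test (edgeR quasi-likelihood test, Benjamini-Hochberg adjusted p = 0.132). With the guides weighted equally as separate groups it passed (edgeR adjusted p = 0.00383). Ofd1 was at 22.5 and 23.1 CPM in the controls, 21.0, 20.0 and 22.0 CPM with its own guide and 31.6 and 29.0 CPM with the Kif3a guide. The 5 samples therefore lay on both sides of the controls, and the pooled log2 fold change was 0.12 (SE 0.16, edgeR adjusted p = 0.651). Counts per gene do not show frameshifts, so these levels check the labels only in part.

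Pooled against GFP, the cilium guides changed 2578 genes at an adjusted p under 0.05, 20.0% of those tested. Of these, 1201 were higher (9.33% of tested genes) and 1377 were lower (10.7%), and 182 and 214 of them changed by more than 2-fold. Median log2 fold changes were 0.42 among the genes called higher and -0.47 among those called lower, against 0.01 over all tested genes, so most changes were moderate. Scaling by library totals alone turned the split from 46.6% to 58.0% higher, with 1600 genes higher and 1157 lower. The counts also rested on having both controls: without control replicate 1 there were 780 calls and without control replicate 2 there were 980, of which 775 and 776 were among the 2578.

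Separation of the 5 samples from both controls was wider than the test's calls. All 5 lay above the higher control for 2649 genes (20.6% of those tested) and below the lower control for 2661 (20.7%). Another 2115 genes (16.4%) had all 5 outside the control range but on both sides of it, and 5450 had at least 1 sample inside it. Of the genes above, 1191 were also called higher, and of those below, 1358 were also called lower. These 2549 genes, called and separated on 1 side, are described below as the common response. None of the genes with samples on both sides was called.

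**Figure D1:**
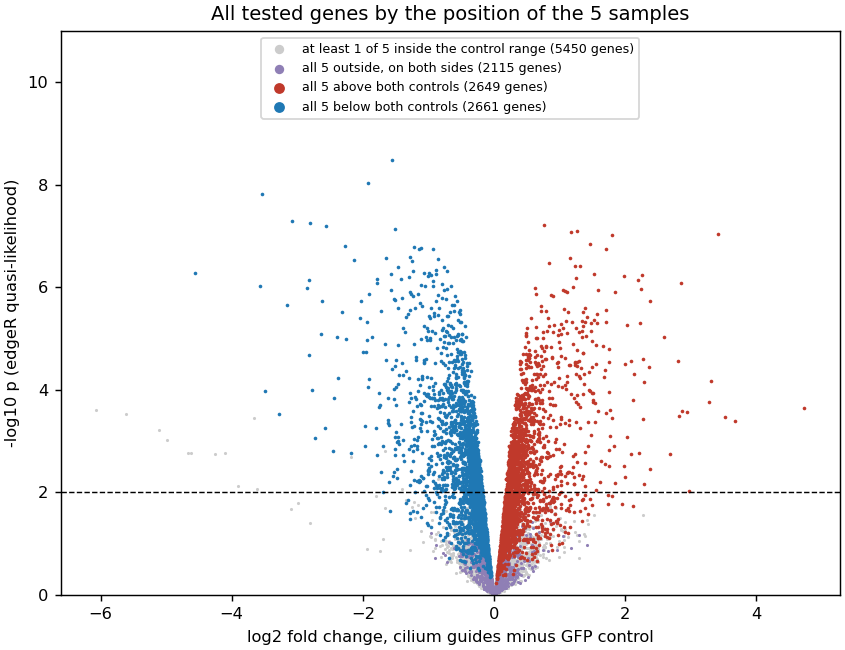
Each point is 1 of the 12875 tested genes, placed by its pooled log2 fold change (cilium guides minus GFP control) and its unadjusted -log10 p, and coloured by where the 5 cilium-guide samples lie relative to both controls. The dashed line is the largest p that passed after adjustment: above it nearly every gene is red (all 5 above) or blue (all 5 below), and the grey points at the far left are genes high in control replicate 1 alone.

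Called genes outside the common response numbered 29, each with at least 1 cilium-guide sample inside the control range. In 12 of them control replicate 1 was more than 3 times control replicate 2 after adding 0.5 CPM, and 2 of these are given here, chosen after their values were seen. Chil3, a secreted macrophage lectin, was at 129 CPM in control replicate 1, at 0.351 CPM in control replicate 2 and at 3.05, 0, 1.70, 0.0432 and 0 CPM in the cilium-guide samples. Ccl22, a chemokine of dendritic cells and macrophages, was at 57.8 and 0.150 CPM in the controls. For such genes the difference was that of 1 control, and they are not counted in the common response.

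Igfbp5, a secreted binding protein for insulin-like growth factors, had the widest gap of the genes that rose. It was at 59.3 and 57.5 CPM in the controls, at 912, 441 and 447 CPM with the Ofd1 guide and at 786 and 524 CPM with the Kif3a guide. The lowest cilium-guide sample was thus several times above either control, and the log2 fold change was 3.41 (SE 0.30, edgeR adjusted p = 0.000102). Cadps2, a regulator of dense-core vesicle release in granule cells, followed with 19.3 and 19.2 CPM in the controls and 126, 72.6, 70.5, 112 and 77.1 CPM in the cilium-guide samples. Cemip, which degrades hyaluronan, went from 1.03 and 0.852 CPM to between 4.62 and 9.15 CPM. Tspan4, a tetraspanin, went from 26.9 and 24.2 CPM to between 89.5 and 193 CPM. All 4 were raised with each guide: the log2 fold changes with the Ofd1 and Kif3a guides were 3.36 and 3.49 for Igfbp5, 2.22 and 2.30 for Cadps2, 2.67 and 3.07 for Cemip, and 2.32 and 2.46 for Tspan4, with the same control samples in each.

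The other 8 of the 12 widest gaps were smaller. Unc5a, a netrin receptor, was at 6.34 and 6.11 CPM in the controls and between 21.8 and 43.2 CPM in the cilium-guide samples. Prph, the neuronal intermediate filament peripherin, was at 8.84 and 9.67 CPM in the controls and at 102, 29.7, 43.1, 82.2 and 65.8 CPM in the cilium-guide samples. The spread among those 5 was large, and the log2 fold change of Prph was 2.80 (SE 0.43, edgeR adjusted p = 0.00120). Cdh23, a cadherin, Diras2, a Ras-like GTPase, Slc24a2, a sodium, potassium and calcium exchanger, and also Mroh2a, Trank1 and Cmya5 made up the rest of the 12 widest gaps, with log2 fold changes from 1.80 for Diras2 to 3.28 for Cmya5. Cmya5 was low, at 0.295 and 0.451 CPM in the controls, and its call was lost without control replicate 1 (edgeR adjusted p = 0.0530).

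Trim66, a member of the TIF1 family of chromatin-binding proteins, had the widest gap of the genes that fell. It was at 44.9 and 65.6 CPM in the controls, at 2.91, 6.45 and 7.30 CPM with the Ofd1 guide and at 2.59 and 4.90 CPM with the Kif3a guide. No sample came near the controls, and the log2 fold change was -3.53 (SE 0.27, edgeR adjusted p = 6.45e-05). Atf5, a stress-induced leucine zipper factor, was at 456 and 527 CPM in the controls and at 49.2, 92.3, 92.8, 40.5 and 78.02 CPM in the cilium-guide samples. Mef2b, a MADS-box transcription factor, went from 7.57 and 9.07 CPM to between 0.539 and 1.54 CPM. Their log2 fold changes were -2.80 (SE 0.24) for Atf5 and -3.08 (SE 0.26) for Mef2b, each with an edgeR adjusted p of 0.000102.

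Most of the other 9 widest falls were genes linked to amino acid stress, which was not measured: Nupr1, Aldh1l2, Trib3, Stc2, Chac1 and Cebpb. The other 3 were Cabp1, a neuronal calcium-binding protein, Nr4a1, an immediate early nuclear receptor, and Pde10a, a phosphodiesterase of cyclic nucleotides. Pde10a had the smallest adjusted p in the whole comparison (4.2e-05 by the edgeR test). It was at 50.6 and 50.04 CPM in the controls and at 17.5, 16.1, 19.1, 14.2 and 19.1 CPM in the cilium-guide samples, a tight group with a log2 fold change of -1.55 (SE 0.10).

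**Figure D2:**
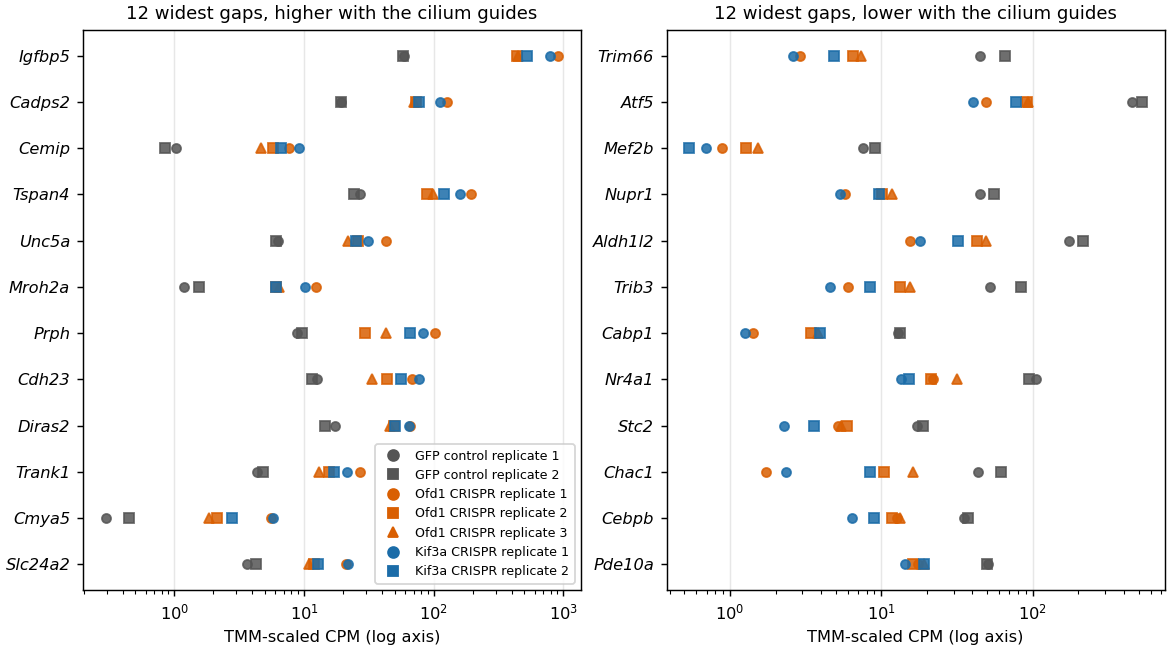
TMM-scaled CPM (log axis) of the 12 genes with the widest gap in each direction, 1 point per sample, with grey for the GFP control, orange for the Ofd1 guide and blue for the Kif3a guide, and symbols for the replicate. In every row the 5 coloured points lie on 1 side of both grey points, and the first replicates (circles) tend to lie farthest out.

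A wide gap and an even response were different things. Among genes changed by at least 1 on the log2 scale, the most even rises were those of Gap43, a growth cone protein, Rab15, a GTPase of endosomal recycling, Ppfia2, a liprin of presynaptic sites, Ckmt1, a mitochondrial creatine kinase, and Grhl3, a grainyhead-like factor. Rab15 was at 126 and 107 CPM in the controls and at 298, 248, 233, 283 and 251 CPM in the cilium-guide samples, a log2 fold change of 1.17 (SE 0.10, edgeR adjusted p = 0.000102). Cyb5r1, a reductase, P2rx3, an ATP-gated channel, Mei4, a meiotic gene, Tnfaip2 and Otub2, a deubiquitinase, were the most even falls. Otub2 was at 49.3 and 57.6 CPM in the controls and at 22.5, 24.7, 28.9, 20.9 and 23.5 CPM in the cilium-guide samples. Only Ckmt1 of these 10 lost its call in an alternative setting, without control replicate 2 (edgeR adjusted p = 0.112). Kcne1l, a potassium channel subunit, was among the 5 smallest adjusted p-values of the rises with a small change: 47.0 and 45.0 CPM in the controls, between 74.0 and 80.3 CPM in the 5, and a log2 fold change of 0.76 (SE 0.07).

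The most abundant genes of the common response that are named here changed by less than 1 on the log2 scale. Eef2, the elongation factor that moves the ribosome along, was at 3368 and 3444 CPM in the controls and at 2839, 2986, 2863, 2508 and 2585 CPM in the cilium-guide samples. Its log2 fold change was -0.31 (SE 0.07, edgeR adjusted p = 0.0138). Pabpc1, the cytoplasmic poly(A)-binding protein, fell by 0.26, and the glycolytic enzymes Aldoa, Pkm and Ldha fell by 0.44, 0.66 and 0.80 on the log2 scale. The most abundant rises were those of Plxnb2, a semaphorin receptor, Flna, an actin crosslinker, Fam212b, Barhl1, a granule cell homeobox factor, and Chd4, the helicase of the NuRD complex, between 0.25 for Plxnb2 and 0.55 for Barhl1. Calls for Eef2, Pabpc1, Plxnb2, Fam212b and Chd4 were lost without either control (edgeR adjusted p from 0.0731 to 0.224), that for Aldoa without control replicate 1 (0.174), and that for Plxnb2 also without Ofd1 replicate 2 (0.0507) or Kif3a replicate 2 (0.0702).

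Hedgehog target genes are the readout of the pathway's activity. Of 12 tested, 8 were called lower and 0 higher, with a median log2 fold change of -0.49 against 0.01 over all tested genes, and 9 had all 5 samples below both controls. Among all tested genes, 10.7% were called lower and 9.33% higher, and 20.7% had all 5 samples below both controls. Gli1, the transcription factor that is itself a direct target, was at 427 and 477 CPM in the controls, at 167, 326 and 265 CPM with the Ofd1 guide and at 201 and 309 CPM with the Kif3a guide. The groups did not overlap, yet the 5 samples spread widely and the fold change of -0.83 (log2, SE 0.20) had an edgeR adjusted p of 0.0118. Ptch1, the receptor that the pathway induces as feedback, was at 140 and 150 CPM in the controls and at 59.0, 85.04, 86.8, 51.5 and 70.6 CPM in the cilium-guide samples. Gene counts do not separate the Ptch1 alleles. Hhip, a decoy receptor, had the largest fall of the list, from 124 and 145 CPM to 27.5, 56.8, 61.7, 42.8 and 55.9 CPM. Log2 fold changes were -1.04 (SE 0.16, edgeR adjusted p = 0.00116) for Ptch1 and -1.46 (SE 0.21, edgeR adjusted p = 0.000776) for Hhip.

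Proliferation targets of the pathway changed less. Ccnd1, which encodes cyclin D1, was at 803 and 807 CPM in the controls and at 456, 591, 596, 467 and 569 CPM in the cilium-guide samples (log2 fold change -0.59, SE 0.10, edgeR adjusted p = 0.00250). Mycn, a driver of progenitor proliferation, was at 67.2 and 63.1 CPM in the controls and at 57.4, 48.7, 52.2, 43.3 and 45.1 CPM in the cilium-guide samples. Its log2 fold change was -0.40 (SE 0.10, edgeR adjusted p = 0.0141). Cdk6 and Foxf2 were also called lower, with log2 fold changes of -0.37 and -0.92. Ccnd2, cyclin D2, did not pass, with all 5 samples above the controls and a log2 fold change of 0.21. The number of Hedgehog targets called lower was 4 without control replicate 1 and 4 without control replicate 2. Gli1 lost its call in both of these settings (edgeR adjusted p = 0.0554 and 0.101), as did Mycn (0.144 and 0.0661).

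Components of the pathway showed no common direction: of 19 tested, 2 were called higher and 5 lower, with a median log2 fold change of -0.04. Over all tested genes 9.33% were higher and 10.7% lower. Gas1, a Hedgehog co-receptor, was at 228 and 215 CPM in the controls and between 127 and 170 CPM in the cilium-guide samples, a log2 fold change of -0.53. Gli2, the main activator downstream of Smoothened, changed by -0.40. The other 3 called lower were Sufu, the Gli inhibitor, Gnas, the stimulatory G protein, and Prkacb, a catalytic subunit of protein kinase A, at -0.32, -0.33 and -0.25. Evc and Evc2, which hold Smoothened at the cilium base, were the 2 called higher, at 0.35 and 0.22. Smo itself did not pass, at 379 and 377 CPM in the controls and between 386 and 433 CPM in the 5. With 1 control left out, 1 member was called lower, and the calls for Gas1 and Evc (without control replicate 1, edgeR adjusted p = 0.0630 and 0.141) and Gli2 (without control replicate 2, 0.0762) were lost.

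**Figure D3:**
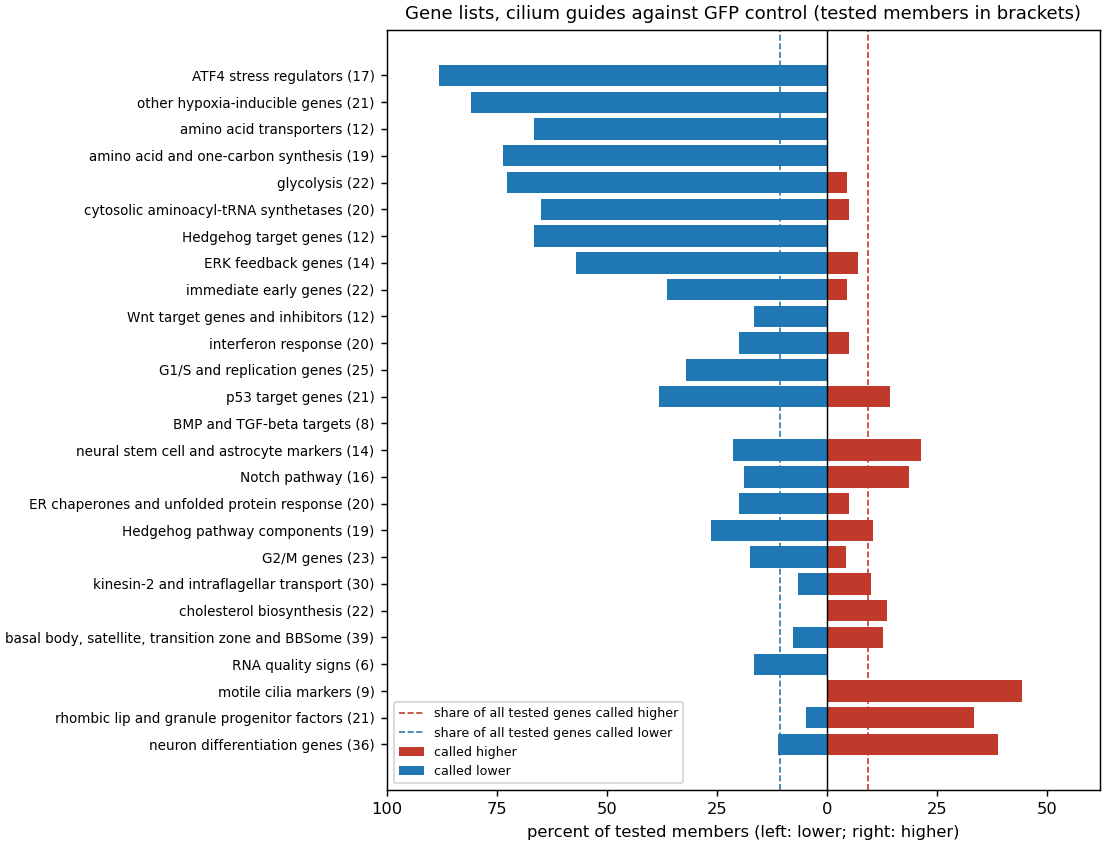
Bars give the percent of a list's tested members called higher (red, right) or lower (blue, left) in the pooled comparison, for the lists with at least 5 tested members, ordered by median log2 fold change, and dashed lines give the same share over all tested genes (9.33% and 10.7%). Lists of amino acid stress, hypoxia and glycolysis lie at the top, with 15 of 17 ATF4 stress regulators lower, and neuron differentiation genes at the bottom, with 14 of 36 higher.

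Among the gene lists, the largest share called lower was in that of Atf4, its regulatory targets and kinases upstream of it. The lists were chosen with earlier results of these data known, so this rank describes the list and tests nothing. ATF4 is a transcription factor that is translated when amino acids run short or the endoplasmic reticulum is stressed. Its activity was not measured here. Of the 17 tested genes of this list, 15 were called lower and 0 higher, with a median log2 fold change of -1.20. Beside these counts, 10.7% of all tested genes were lower and 9.33% higher. Trib3, a pseudokinase that feeds back on ATF4, was at 51.9 and 84.1 CPM in the controls and at 6.01, 13.2, 15.5, 4.58 and 8.35 CPM in the cilium-guide samples. Nupr1, a small chromatin protein of the stress response, was at 44.8 and 55.4 CPM in the controls and at 5.71, 10.1, 11.8, 5.31 and 9.70 CPM in the 5. The log2 fold changes were -2.85 (SE 0.32, edgeR adjusted p = 0.000215) and -2.57 (SE 0.22, edgeR adjusted p = 0.000102). Chac1, which degrades glutathione, spread more, from 43.2 and 61.8 CPM to 1.72, 10.3, 16.1, 2.33 and 8.41 CPM. Atf4 itself was at 573 and 631 CPM in the controls and between 310 and 400 CPM in the 5, a log2 fold change of -0.72. Eif2ak3 and Eif2ak4, kinases upstream of ATF4, were the 2 that did not pass, at -0.16 and -0.02.

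Many enzymes and transporters that supply amino acids are known targets of ATF4. For the counts of these lists, the shares over all tested genes were 10.7% lower and 9.33% higher. Of 19 genes of amino acid and one-carbon synthesis, 14 were called lower and 0 higher (median -0.94 on the log2 scale). Cth, which makes cysteine, was at 35.2 and 46.1 CPM in the controls and at 9.11, 10.4, 13.6, 9.46 and 10.9 CPM in the cilium-guide samples, with a log2 fold change of -1.93 (SE 0.14, edgeR adjusted p = 5.99e-05). Aldh1l2, a mitochondrial enzyme of folate metabolism, went from 172 and 214 CPM to 15.6, 42.7, 49.2, 18.05 and 32.2 CPM. Aldh18a1, of proline synthesis, and Gpt2, a mitochondrial alanine transaminase, changed by -1.25 and -1.47. Of 12 amino acid transporters, 8 were called lower and 0 higher (median -0.998), led by Slc1a4, a transporter of small neutral amino acids, Slc6a9, a glycine transporter, and Slc7a11, the cystine exchanger, at -1.22, -1.57 and -2.81. Of 20 cytosolic aminoacyl-tRNA synthetases, 13 were called lower and 1, Farsa, higher (median -0.59). Eprs (glutamate and proline), Sars (serine) and Nars (asparagine) changed by -0.76, -0.88 and -0.93.

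Chaperones of the endoplasmic reticulum belong to another branch of the stress response. Of 20 tested, 4 were called lower and 1, Creld2, higher, with a median of -0.05. Over all tested genes 10.7% were lower and 9.33% higher. Herpud1, a degradation factor, Atf6, a stress sensor of the reticulum, Dnajb9 and Hsp90b1 were the 4, at -0.66, -0.44, -0.40 and -0.25. Lower chaperone genes numbered 2 without either control, with Hsp90b1 lost (edgeR adjusted p = 0.115 and 0.146). In the 4 lists of the amino acid response the counts held when a control was left out: between 13 and 14 regulators, between 13 and 14 synthesis genes, between 7 and 8 transporters and 13 synthetases were lower. The levels of these genes also differed between the controls, with control replicate 2 above control replicate 1 for Atf5, Trib3, Nupr1, Chac1, Aldh1l2 and Cth, and among the cilium-guide samples, where Ofd1 replicate 1 and Kif3a replicate 1 were lowest for Atf5, Trib3, Nupr1, Chac1 and Aldh1l2.

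Promoter sequences were searched for motifs matched to these 4 lists, to the glycolysis and hypoxia lists and to the Hedgehog targets. For these 4 the motif was the C/EBP-ATF response element, TGATGNAAN on either strand. The search ran from 250 bases before to 50 bases after the start site in the RefSeq table of build GRCm38.p6. This motif was present in 15 of the 40 promoters found for the 50 members called lower (37.5%). Over the 9686 tested genes with a promoter in the table it was present in 245 (2.53%), in 17 of 919 promoters of genes called higher (1.85%) and in 33 of 1000 promoters of genes called lower outside these lists (3.30%). Many members were listed as known ATF4 targets, so a high share was likely beforehand. The shares describe the lists and test nothing about the response. A match is a run of letters, not a measured binding site. The windows below are the 6 largest falls among the members with a match wholly before the start site, each 5′ to 3′ on the gene's own strand with the match in capitals. They lie at chr3:50443629-50443703 (minus strand) for Slc7a11, chr2:119351024-119351080 (plus strand) for Chac1, chr7:126625549-126625605 (minus strand) for Nupr1, chr11:120643819-120643875 (minus strand) for Pycr1, chr6:7693210-7693256 (minus strand) for Asns and chr1:191183412-191183468 (minus strand) for Atf3.
Slc7a11: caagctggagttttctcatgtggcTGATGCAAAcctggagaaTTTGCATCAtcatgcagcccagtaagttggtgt
Chac1: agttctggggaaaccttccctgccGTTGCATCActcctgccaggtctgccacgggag
Nupr1: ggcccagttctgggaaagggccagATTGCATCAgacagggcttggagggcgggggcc
Pycr1: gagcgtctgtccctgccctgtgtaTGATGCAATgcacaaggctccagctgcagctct
Asns: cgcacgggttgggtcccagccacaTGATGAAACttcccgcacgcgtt
Atf3: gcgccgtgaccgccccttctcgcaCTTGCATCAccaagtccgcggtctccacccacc

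Slc7a11 was the only one of the 6 printed with 2 matches, in opposite orientations. It was low, at 2.55 and 3.21 CPM in the controls and at 0.296, 0.445, 0.308, 0.302 and 0.700 CPM in the cilium-guide samples. Asns, the asparagine synthetase gene, was high, at 431 and 473 CPM in the controls and at 106, 182, 192, 119 and 161 CPM in the 5. Pycr1, the last enzyme of proline synthesis, was at 77.2 and 79.1 CPM in the controls and between 15.6 and 33.6 CPM in the 5. Atf3, a transcription factor induced by stress, was at 7.47 and 8.97 CPM in the controls and between 2.96 and 5.62 CPM in the 5. Log2 fold changes were -2.81, -1.57, -1.72 and -0.98 for these 4 genes, and -2.78 and -2.57 for Chac1 and Nupr1.

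Glycolysis and other hypoxia-inducible genes formed a further part of the common response. Hypoxia-inducible factors raise glucose uptake, glycolysis and collagen-modifying enzymes when oxygen is low. Of 22 glycolysis genes, 16 were called lower and 1, Pfkfb4, higher, with a median log2 fold change of -0.67. Of 21 other hypoxia-inducible genes, 17 were called lower and 0 higher, with a median of -1.08. Beside these counts, 10.7% of all tested genes were lower and 9.33% higher. Pgk1, phosphoglycerate kinase, was at 507 and 447 CPM in the controls and at 217, 264, 316, 153 and 213 CPM in the cilium-guide samples, a log2 fold change of -1.04 (SE 0.19, edgeR adjusted p = 0.00302). Ero1l, an oxidase of protein folding, was at 91.3 and 86.7 CPM in the controls and at 35.5, 44.7, 44.9, 29.7 and 29.6 CPM in the 5, a log2 fold change of -1.27 (SE 0.14, edgeR adjusted p = 0.000228). Pkm, the pyruvate kinase, and Hk2, hexokinase 2, changed by -0.66 and -1.001, and Plod2 and P4ha1, which hydroxylate collagen, by -0.73 and -0.81.

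Medians of both lists were lower with the Kif3a guide than with the Ofd1 guide. Median log2 fold changes over the glycolysis list were -0.52 with the Ofd1 guide and -0.92 with the Kif3a guide, and over the other hypoxia genes -0.86 and -1.59, against the same controls. This order was not limited to these lists. Of the 1358 common-response genes called lower, 346 had all Kif3a samples below all Ofd1 samples, and 19 had the reverse. Counts called lower were 6 and 9 glycolysis genes and 7 and 10 other hypoxia genes without control replicates 1 and 2. The core of the hypoxia response element, ACGTG or GCGTG on either strand, was found in 24 of 27 promoters of members called lower (88.9%), but also in 68.8% of all tested genes with a promoter in the table and in 66.4% of those called higher. This short core is common, and no site of hypoxia-inducible factors was measured.

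Immediate early genes and feedback genes of the ERK pathway respond quickly to growth factor signals. For the counts of both lists, the shares over all tested genes were 10.7% lower and 9.33% higher. Of 22 immediate early genes, 8 were called lower and 1, Arc, higher (median log2 fold change -0.26). Nr4a1 was at 106 and 94.2 CPM in the controls and at 22.0, 21.2, 31.5, 13.5 and 15.2 CPM in the cilium-guide samples, a log2 fold change of -2.28 (SE 0.21, edgeR adjusted p = 0.000123). Nr4a3, of the same receptor family, and Maff, a small Maf factor, changed by -1.91 and -1.94. Fos, Egr1 and Junb did not pass, at -0.11, -0.42 and -0.31. Of 14 ERK feedback genes, 8 were called lower and 1, Il17rd, higher (median -0.39). Dusp4, a MAP kinase phosphatase, was at 22.5 and 22.9 CPM in the controls and at 6.31, 12.3, 11.7, 6.52 and 8.08 CPM in the 5, a log2 fold change of -1.35. Etv5, an Ets factor induced by ERK, and Spred2, an inhibitor of Ras signalling, changed by -0.70 and -0.39. Without control replicates 1 and 2, the lists had 4 and 5 immediate early genes and 4 and 4 ERK feedback genes lower.

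Targets of p53, the DNA damage response factor, had 8 of 21 members lower and 3 higher, with a median of -0.13. The shares over all tested genes were 10.7% lower and 9.33% higher. Gdf15, a stress cytokine, was at 3.39 and 4.26 CPM in the controls and at 0.197, 0.278, 0.925, 0.216 and 0.539 CPM in the cilium-guide samples (log2 fold change -3.15, SE 0.38, edgeR adjusted p = 0.000308). Cdkn1a, the p21 cell cycle inhibitor, was at 11.1 and 6.91 CPM in the controls and between 2.12 and 3.84 CPM in the 5, at -1.66. Sesn2, which ATF4 also induces, changed by -1.52. Mdm2 and Ccng1, which p53 induces directly, did not pass, at 0.00 and -0.03. The 3 called higher were Sesn1, Trp53inp1 and the gene listed as 9630033F20Rik (Tigar), at 0.35, 0.62 and 0.30. Lower members numbered 5 without either control.

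The shares of cilium genes called lay near those of all tested genes (9.33% higher and 10.7% lower), so the counts are no result about these lists. Of 30 genes of kinesin-2 and intraflagellar transport, 3 were called higher and 2 lower, with a median log2 fold change of 0.08. Ift74, of the IFT-B core, was at 43.9 and 41.9 CPM in the controls and at 54.3, 50.5, 60.0, 67.0 and 57.1 CPM in the cilium-guide samples, a log2 fold change of 0.43 (SE 0.10, edgeR adjusted p = 0.0105). Ift140, of the IFT-A complex, and Ift27 were the other 2 called higher, at 0.25 and 0.22, and Ift57 and Ttc21b were lower, at -0.29 and -0.28. None of these 5 kept its call without control replicate 1 or without control replicate 2 (edgeR adjusted p from 0.0749 to 0.237 for Ift74, Ift57 and Ift140), and Ift140 was also lost without Ofd1 replicate 2 (0.0574). Lower members were 1 without Kif3a replicate 1 and 1 without Kif3a replicate 2. Of 39 genes of the basal body, satellites, transition zone and BBSome, 5 were called higher and 3 lower (median 0.09). Cep89, a distal appendage protein, and Odf2, an appendage scaffold, rose by 0.44 and 0.24, with Tctn1, Tctn2 and Tmem216 of the transition zone at 0.36, 0.33 and 0.31. Arl13b, a ciliary membrane GTPase, Ahi1 and Nphp4 changed by -0.26, -0.26 and -0.33. Leaving out a control left 1 higher and 0 lower in this list, Arl13b and Odf2 being lost both ways (edgeR adjusted p from 0.0933 to 0.249). Leaving out Kif3a replicate 1 left 5 higher and 1 lower, and leaving out Kif3a replicate 2 left 2 and 1.

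Among markers of motile cilia, which have their own axonemal genes, 4 of 9 tested were called higher and 0 lower, with a median of 0.17. Shares over all tested genes were 9.33% higher and 10.7% lower. Foxj1, the master factor of motile ciliogenesis, was at 8.11 and 7.41 CPM in the controls and at 30.5, 16.5, 16.3, 19.1 and 16.6 CPM in the cilium-guide samples, a log2 fold change of 1.35 (SE 0.24, edgeR adjusted p = 0.00301). Ccdc40, a ruler of axonemal dynein spacing, Rfx2, a ciliogenic factor, and Dnah9, an outer arm dynein, changed by 0.56, 0.44 and 2.97. Dnah9 was near the detection limit, at 0.0982 and 0 CPM in the controls and between 0.103 and 0.739 CPM in the 5, so its fitted fold change is imprecise. Ccdc40 and Rfx2 were lost without either control (edgeR adjusted p from 0.0803 to 0.252), and Rfx2 also without Ofd1 replicate 1, Ofd1 replicate 2 or Kif3a replicate 1 (0.0568, 0.0787 and 0.0506). The number of motile cilia markers called higher was 1 without either control and 2 without Ofd1 replicate 1, Ofd1 replicate 2 or Kif3a replicate 1.

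Among factors of the rhombic lip and granule progenitors, of 21 tested, 7 were called higher and 1, Mycn, lower, with a median log2 fold change of 0.18. Shares over all tested genes were 9.33% higher and 10.7% lower. Pax6, a homeobox factor of the granule lineage, was at 131 and 129 CPM in the controls and at 237, 206, 202, 270 and 238 CPM in the cilium-guide samples, a log2 fold change of 0.83 (SE 0.10, edgeR adjusted p = 0.000396). Barhl1 was at 637 and 639 CPM in the controls and at 1109, 909, 831, 899 and 926 CPM in the 5. Atoh1, the proneural factor that keeps granule progenitors dividing, was at 364 and 388 CPM in the controls and between 496 and 619 CPM in the 5, a log2 fold change of 0.55. Meis1 and Zic4 changed by 0.50 and 0.65. The number called higher was 6 without control replicate 1 and 6 without control replicate 2.

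Of 36 neuron differentiation genes, 14 were called higher and 4 lower, 18 did not pass, and the median was 0.28. By comparison, 9.33% of all tested genes were higher and 10.7% lower. Gap43 was at 63.5 and 51.2 CPM in the controls and at 154, 125, 124, 149 and 136 CPM in the cilium-guide samples, a log2 fold change of 1.26 (SE 0.11, edgeR adjusted p = 0.000102). Nefl, the light neurofilament, was at 4.13 and 3.51 CPM in the controls and between 8.12 and 11.5 CPM in the 5, at 1.36. Dcx, a microtubule protein of migrating neurons, and Cntn2, an adhesion molecule of early granule neurons, changed by 1.00 and 1.57. The list was not uniform: Ncam1, a neural adhesion molecule, fell from 127 and 140 CPM to between 67.5 and 86.4 CPM (-0.80), and Dclk1, Rbfox3 and Mef2c, at -0.59, -0.45 and -0.34, were the other 3 called lower. Tubb3, Snap25 and Syt1 did not pass, at 0.26, 0.11 and -0.10. Higher members numbered 7 without either control. In bulk samples more cells of a kind and more RNA per cell cannot be told apart.

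Stem cell and glial markers were mixed. In the list of neural stem cell and astrocyte markers, 3 of 14 tested were called lower and 3 higher, with a median of -0.12. The shares over all tested genes were 10.7% lower and 9.33% higher. Sox2, a factor of neural stem cells, was at 56.2 and 57.2 CPM in the controls and at 34.6, 35.4, 36.8, 30.9 and 34.6 CPM in the cilium-guide samples, a log2 fold change of -0.72 (SE 0.07, edgeR adjusted p = 0.000179). Sox9 and Sox1, of the same family, changed by -0.71 and -0.61. Vim, Slc1a2 and Hes5 were the 3 called higher, at 0.38, 0.35 and 0.95, and the higher members numbered 1 and 0 without control replicates 1 and 2, while the 3 lower ones kept their calls. Pdgfra, a receptor of oligodendrocyte progenitors that other cells also express, was the 1 of 4 oligodendrocyte lineage markers called lower, from 269 and 256 CPM to 79.5, 140, 168, 89.4 and 131 CPM. Gfap, an astrocyte filament, spread from 34.9 to 134 CPM among the 5 around controls at 43.3 and 43.4 CPM, and did not pass (edgeR adjusted p = 0.119).

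Markers of cells foreign to the culture were mostly too low to test. Of 18 microglia and macrophage markers 3 were tested, and Ctss, a lysosomal protease, was called lower, from 7.47 and 0 CPM to 0.591, 0, 0.103, 0 and 0 CPM. It was high in control replicate 1 alone, and DESeq2 did not call it (adjusted p = 0.415). Of the endothelial and fibroblast markers, 2 and 3 were tested, and Cdh5 and Fn1 were called lower, at -1.26 and -0.49. Cdh5 was lost without either control (edgeR adjusted p = 0.0941 and 0.215) or Kif3a replicate 2 (0.0580), and Fn1 without control replicate 2 (0.134). Of 6 genes tested as signs of RNA quality, 1, the nuclear RNA Neat1, was lower, at -0.45, and it too was lost without control replicate 2 (edgeR adjusted p = 0.178). The part of these cells in the other results was not tested.

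A minority of cell cycle genes was called, beside shares of 9.33% higher and 10.7% lower over all tested genes. Of 25 G1/S and replication genes, 8 were called lower and 0 higher (median log2 fold change -0.19), and 18 had all 5 samples below both controls. Among all tested genes, 20.7% had all 5 samples below both controls. Cdt1, a replication licensing factor, was at 207 and 208 CPM in the controls and at 144, 170, 157, 123 and 145 CPM in the cilium-guide samples, a log2 fold change of -0.49 (SE 0.10, edgeR adjusted p = 0.00427). Mcm10 and Cdc45, of the replication fork, changed by -0.44 and -0.41. Of 23 G2/M genes, 4 were called lower and 1 higher (median -0.03): Top2a, Bub1, Cdk1 and Aurka at -0.34, -0.31, -0.26 and -0.24, and Cenpf at 0.27. The lower G1/S genes numbered 3 and 1, and the called G2/M genes 0 and 0, without control replicates 1 and 2, by the edgeR test. The 5 named G2/M calls depended on both controls, with edgeR adjusted p from 0.0536 to 0.222 for Top2a, Bub1 and Cenpf when 1 was left out, and Bub1 was also lost without Kif3a replicate 2 (0.0602). Lower G2/M members were 2 without Ofd1 replicate 1, 2 without Kif3a replicate 1 and 1 without Kif3a replicate 2. Mcm10 lost its call without control replicate 2 (0.0920), and Cdc45 without either control (0.0744 and 0.0969).

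Signalling lists outside Hedgehog held single genes with large changes. For their counts, the shares over all tested genes were 9.33% higher and 10.7% lower. Counts of a few members say little about such small lists. Hey1, a repressor induced by Notch, was at 72.5 and 62.5 CPM in the controls and at 273, 171, 183, 216 and 166 CPM in the cilium-guide samples, a log2 fold change of 1.58 (SE 0.18, edgeR adjusted p = 0.000220). The Notch list as a whole had 3 of 16 higher and 3 lower (median -0.06), with Hes5 and the ligand Dll1 at 0.95 and 0.47 and Notch3, Jag2 and Lfng at -0.83, -0.75 and -0.58. Wif1, a secreted Wnt inhibitor, was at 74.1 and 91.2 CPM in the controls and at 23.2, 29.2, 39.7, 21.1 and 31.6 CPM in the 5, a log2 fold change of -1.52 (SE 0.18, edgeR adjusted p = 0.000266). It and Nkd1 (-0.27) were the 2 of 12 Wnt genes called lower. Among 8 targets of BMP and TGF-beta tested, 0 were called in the edgeR fit (0 higher and 0 lower), and DESeq2 called 1. Cholesterol synthesis had 3 of 22 higher, among them Mvd and Fdft1 at 0.42 and 0.33. Interferon genes had 4 of 20 lower (Oasl2, Rsad2, Ifih1 and B2m at -0.86, -0.77, -0.47 and -0.32) and 1 higher, Ifi35 at 0.66. Without control replicates 1 and 2, the called Notch genes numbered 1 higher and 1 lower, then 1 higher and 0 lower, the Wnt genes 1 and 1 lower, the cholesterol genes 2 and 0 higher, and the interferon genes 2 and 1 lower, while Hey1 and Wif1 kept their calls in all 14 alternative settings.

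Strength of the common response differed among the 5 samples. Over the 2411 common-response genes whose mean level reached 2 CPM, the median shift from the control mean on the log2(CPM + 0.5) scale was 0.47, 0.36 and 0.30 in Ofd1 replicates 1 to 3 and 0.45 and 0.39 in Kif3a replicates 1 and 2 for the 1132 genes that rose. For the 1279 that fell it was -0.50, -0.39, -0.33, -0.54 and -0.45 in the same order. Ofd1 replicate 3 was the sample nearest to the controls for 595 of the higher and 602 of the lower genes. Ofd1 replicate 1 was farthest for 509 of the higher genes and Kif3a replicate 1 for 599 of the lower genes. Since the genes were chosen for separation from the controls, these shifts describe how the samples rank and test nothing.

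**Figure D4:**
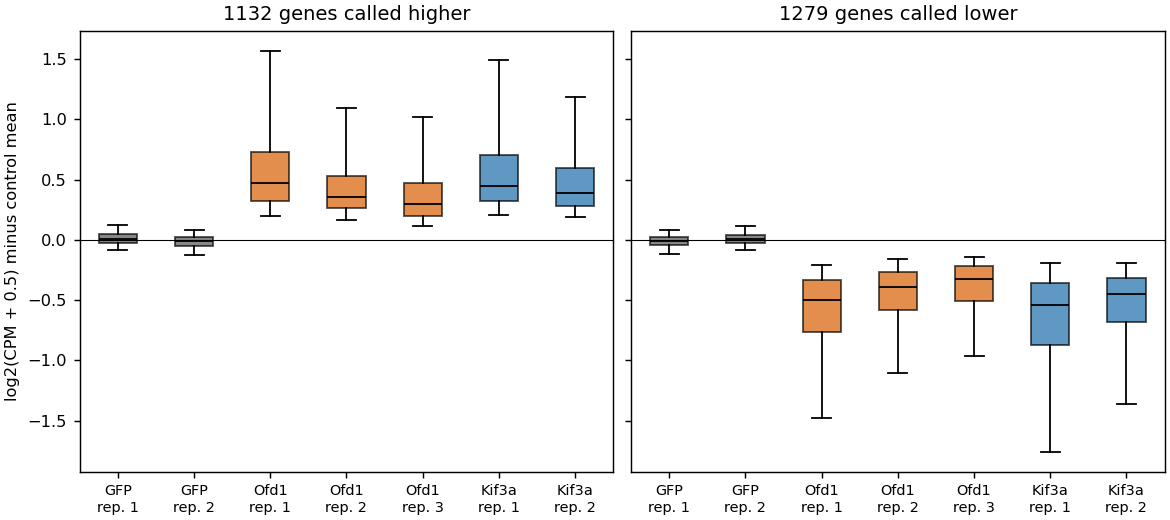
Boxes show, for each sample, the distribution over common-response genes of log2(CPM + 0.5) minus the mean of both controls (line at the median, box over the middle quartiles, whiskers at the 5th and 95th percentiles), for the 1132 genes called higher and the 1279 called lower whose mean level reached 2 CPM. Ofd1 replicate 3 has the smallest median shift in both panels, 0.30 and -0.33.

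Where the guides differed was tested directly, Ofd1 samples against Kif3a samples, which uses no control level. This called 23 genes (0.179% of those tested), of which 21 belonged to the common response and 22 were lower in the Kif3a samples. At an unadjusted p under 0.05 there were 1230. Of the 23, 12 were in the glycolysis or hypoxia lists, which hold 43 tested genes. P4ha2, a collagen prolyl hydroxylase, was at 41.1 and 39.7 CPM in the controls, 22.3, 19.3 and 16.6 CPM with the Ofd1 guide and 4.97 and 8.35 CPM with the Kif3a guide. Both guides lowered it, and the Kif3a samples lay below all Ofd1 samples, with a log2 difference of 1.56 (SE 0.19, edgeR adjusted p = 0.00460). Apln, the peptide apelin, was at 16.4 and 14.1 CPM in the controls, 7.59, 7.17 and 8.99 CPM with the Ofd1 guide and 2.37 and 3.13 CPM with the Kif3a guide, a difference of 1.54 (SE 0.18, edgeR adjusted p = 0.00426).

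Further examples had the same order. Loxl2, a lysyl oxidase, Plekha2, a phosphoinositide-binding adaptor, and Mpp2, a membrane scaffold, differed by 1.41, 1.19 and 1.14 between the guides. The glucose transporters Slc2a1 and Slc2a3 and the oxygen sensor Egln3 were also among the 23. Pooling treats such differences as spread. P4ha2, Apln, Loxl2 and Mpp2 lost their pooled calls when either control was left out, with log2 fold changes from -1.53 to -0.96. By DESeq2, P4ha2, Apln and Mpp2 were not called (adjusted p = 0.0655, 0.0745 and 0.106). Mpp2 was also lost without Kif3a replicate 2 (edgeR adjusted p = 0.0568). The reason for these losses was not tested. The number of genes that differed between the guides was 0 without Kif3a replicate 1 and 50 without Ofd1 replicate 1. Over the Hedgehog targets the median difference between the guides was 0.00 and over the amino acid synthesis genes 0.12 on the log2 scale, with 0 called in either list. It was 0.30 over the ATF4 stress regulators and 0.37 over the immediate early genes, also with 0 called. Over the glycolysis and other hypoxia lists it was 0.43 and 0.64.

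**Figure D5:**
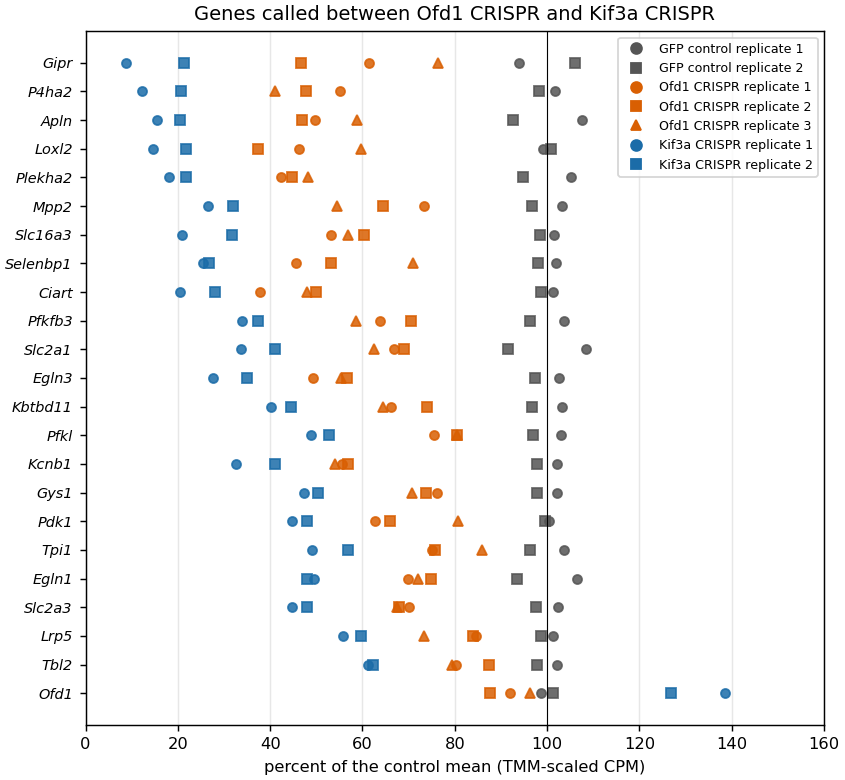
Each row is 1 of the 23 genes called between the Ofd1 and Kif3a guides, ordered by the size of the difference, with every sample's TMM-scaled CPM as a percent of the control mean. In 22 rows both Kif3a samples (blue) lie below all 3 Ofd1 samples (orange), and Ofd1 in the bottom row is the exception.

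Genes with all 5 samples outside the control range on both sides were mostly small differences. In 55 of the 2115, all Ofd1 samples were above and all Kif3a samples below the controls, and in 33 the reverse held. Fam69b, a kinase-like protein of the endoplasmic reticulum, was at 35.5 and 35.1 CPM in the controls, 37.6, 31.0 and 37.0 CPM with the Ofd1 guide and 25.9 and 25.3 CPM with the Kif3a guide. Jun, an AP-1 subunit, was at 139 and 145 CPM in the controls, 178, 163 and 161 CPM with the Ofd1 guide and 132 and 138 CPM with the Kif3a guide. H1fx, a linker histone, and Slc35d3, a nucleotide sugar transporter, had the same order as Jun, and pooled log2 fold changes of 0.00 and 0.06.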

How the data were processed

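RNA from 7 samples of SMB21 cells was sequenced as stranded mRNA libraries in 1 run, with single-end reads of 75 bases, per the labels. The deposited values are raw counts of reads per gene, whole numbers made by the authors; the submitters' processing notes name STAR, DESeq2 and build mm9, with no version, and the counting tool, its strand setting and the annotation are not stated. Reads from overlapping or near-identical genes may therefore be misassigned. Samples were grouped by guide target. Of 24047 genes, 6795 had no count, and the 12875 kept by edgeR's filterByExpr on the pooled groups held 99.96% of the counts.

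The pooled comparison (5 against 2) used edgeR 4.0.16 quasi-likelihood F tests with TMM factors, two-sided, in R 4.3.3, with Benjamini-Hochberg adjustment over all tested genes and calls at an adjusted p under 0.05. A model with 3 group means gave each guide's fold changes and the direct test of Ofd1 against Kif3a. Residual degrees of freedom were 5 and 4, and the common biological variation was 7.98% in the pooled fit. Standard errors are the fold change divided by the square root of F. Of the fits, only the pooled one was tested on simulated data, in which the guides did not differ.

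Named genes were the targeted and main Hedgehog genes; then, from the called genes that averaged 2 CPM or more and had all 5 samples on 1 side, the 12 widest gaps on the log2(CPM + 0.5) scale, the 5 smallest adjusted p-values, the 5 most abundant and the 5 most even in each direction, up to 3 called members of each of 30 gene lists, and the 5 leading genes that differed between the guides. Other genes, where a list's count was small or a group was described, were chosen after their values were seen, as was every gene that did not pass. The members and lists were chosen with earlier results of these data known. Alternatives were RLE factors, library totals, other filters, DESeq2 1.42.0, equal guide weights, a replicate block and leaving out each sample. Promoters were read from RefSeq sequences of build GRCm38.p6, which is not the build of the counts; 9686 tested genes matched by symbol. The C/EBP-ATF, hypoxia and Gli (GACCACCCA) motifs were searched on both strands, separately, with overlaps kept; the Gli letters were in 0 of 5 promoters found for the Hedgehog targets called lower and in 0.279% of those of tested genes. Genes that the lists name but the table does not hold were not used here. Values of a few list members are not reported here.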

Additional observations from a re-analysis of the deposited data

Results flagged for a closer look

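Among the 128 named genes, the 5 cilium-guide samples held a sample far from the other 4 in 4 cases. The test, of the gap at the sample's end of the range, is met by chance alone in about 1 in 20 groups. With 128 genes looked at, several such cases arise by chance, so these 4 are given as description only. Ofd1 replicate 3 was lowest for Plxnb2, at 1372 CPM with the others between 1556 and 1610 CPM, and for Dll1, at 54.3 CPM with the others between 68.7 and 72.9 CPM. Both of these values lay nearer to the controls than the other 4 did. Ofd1 replicate 1 was highest for Foxj1, at 30.5 CPM with the others between 16.3 and 19.1 CPM, and for Ctss, a lysosomal protease of macrophages, at 0.591 CPM with the others between 0 and 0.103 CPM. Ctss was at 7.47 CPM in control replicate 1 and had no count in control replicate 2.

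Differences between the guides passed the direct test (edgeR quasi-likelihood, Benjamini-Hochberg adjusted) for 6 of the named genes. Log2 differences, Ofd1 guide minus Kif3a guide, were 1.56 for P4ha2, 1.54 for Apln, 1.41 for Loxl2, 1.19 for Plekha2 and 1.14 for Mpp2, with adjusted p from 0.00426 to 0.00886 and both Kif3a samples below all 3 Ofd1 samples in each. Ofd1 itself had a difference of -0.53 (adjusted p = 0.0399), with both Kif3a samples above all 3 Ofd1 samples.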

How the results depend on the processing

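Calls depended most on the number of controls. Leaving out 1 sample at a time gave between 780 and 2958 called genes (main value 2578), between 330 and 1433 higher and between 450 and 1525 lower, with the lowest totals without control replicate 1 (780) and control replicate 2 (980). The numbers with all cilium-guide samples above or below the controls stayed within 1.5 times under the other scalings and filters. Leaving out a sample makes this rule easier to meet. Those counts all rose, and they say nothing about stability. Genes differing between the guides numbered 23, but 80 without the filter on low counts, 191 with a replicate block, 107 by DESeq2, and between 0 and 50 with 1 sample left out. In the pooled comparison the replicate block gave 2954 calls. The labels do not say that a number pairs samples, and the deviations of same-numbered samples correlated at 0.332 and 0.279 between the guides, at 0.154 and 0.213 between control and Ofd1, and at 0.00536 between control and Kif3a for both numbers. Genes on both sides of the controls changed sign: H1fx was at -0.00460 with RLE factors, -0.00264 without the filter, -0.00194 with the stricter filter, -0.0440 with equal guide weights, -0.0336 with the replicate block, -0.00426 by DESeq2 and from -0.0503 to 0.0754 with 1 sample left out, and Slc35d3 at -0.0364 with equal guide weights and from -0.0957 to 0.163 with 1 sample left out. The causes were not tested. Of the 122 named genes that passed, 79 kept their call in all 14 alternatives. With library totals of at least 17961767, 3 counts are at most 0.167 CPM, which limits what can be said of genes such as Dnah9 and Ctss.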

Other observations

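Further groups, defined by gene symbol after the values were seen, moved in the pooled comparison and are given as counts with no test of the group. Of 53 semaphorin, plexin, netrin, Unc5, Slit, Robo, ephrin and Eph genes, which guide growing axons, 17 were called higher (32.1%) and 6 lower (11.3%), against 9.33% and 10.7% of all tested genes. Ephb1 was at 10.95 and 9.12 CPM in the controls and at 34.2, 25.1, 22.1, 34.2 and 23.9 CPM in the cilium-guide samples, a log2 fold change of 1.48 (SE 0.19, edgeR adjusted p = 0.000448). Efna3, a ligand of Eph receptors, was at 6.53 and 6.16 CPM in the controls and between 15.9 and 30.0 CPM in the 5. Epha8 and Slit3 fell, at -1.27 and -1.02 on the log2 scale. Without control replicates 1 and 2, 7 and 9 of these genes were higher and 4 and 3 lower.

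Of 19 circadian clock genes tested, 8 were called lower and 0 higher, with a median log2 fold change of -0.21. By comparison, 10.7% of all tested genes were lower and 9.33% higher. Ciart, a repressor of the clock, was at 52.0 and 50.7 CPM in the controls and at 19.5, 25.7, 24.6, 10.5 and 14.4 CPM in the cilium-guide samples, and Nr1d1, a nuclear receptor of the clock, was at 13.8 and 17.0 CPM in the controls and between 9.24 and 10.96 CPM in the 5. Clock and Arntl, the activators at its centre, did not pass, at 0.01 and 0.17. Without control replicates 1 and 2, 3 and 2 clock genes were lower, and with library totals alone 2 were higher.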
